A study of Arabidopsis thaliana with 41 samples.

Results

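Transcript levels in val1 mutant embryos were compared with those in wild-type embryos of Arabidopsis thaliana at 13 days of age. The comparison used the 3 val1 and 3 wild-type libraries that the sample titles place at that age, 6 of the 41 RNA-seq libraries of the series, in which both genotypes were followed from day 7 to day 17. Embryos of both genotypes grew under the same conditions, were dissected cold from staged siliques, and were washed to take off endosperm. The mutant allele and the wild-type accession are not given in the sources used here.

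VAL1, also called HSI2, encodes a B3-domain protein that represses transcription. Its B3 domain reads the RY element, with the core letters CATGCA, and it is known for bringing histone deacetylase and Polycomb complexes to its targets, which include FLC and genes of the seed maturation program. It is best known for silencing the seed program after germination. At the age studied here wild-type embryos fill with storage protein and oil, lose chlorophyll, and begin to make the late embryogenesis abundant (LEA) proteins that protect cells in the dry seed.

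The libraries held an estimated 28837438 to 37043384 reads each, and genes for seed storage proteins took 48.6 to 58.9% of them. Log2 levels correlated at 0.977 to 0.988 between libraries of 1 genotype and at 0.930 to 0.972 between genotypes. The series design describes its 3 replicates as biological. Wild-type replicate 2 stood apart in age-related genes, as described below. Of 10 endosperm markers 4 had enough signal to be tested and none was called. RGE1 and ALE1, defining endosperm genes, were listed at 0 in all 6 libraries, and the 4 summed to 132.7, 113.6 and 156.9 FPKM in val1 and to 211.0, 157.4 and 188.2 FPKM in wild type, held by ICE1 and EPR1. EPR1 had a difference of -1.27 (limma adjusted p = 0.126), and 1 of 2 endosperm genes was lower with libraries paired by number. Of 12 seed coat markers 8 were tested, and they summed to 17.6 to 24.7 FPKM in val1 and 10.3 to 14.4 FPKM in wild type. MUM4, a rhamnose synthase used for seed coat mucilage, was the 1 of these called, at a log2 difference of 1.03 (SE 0.23, limma adjusted p = 0.00136). The part of such cells in the differences was not tested. In whole embryos, fewer cells of a type and less RNA per cell cannot be told apart.

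Levels are given as FPKM, fragments per kilobase of transcript and per library size, summed over the transcripts of a gene and scaled between libraries. Differences are val1 minus wild type on a log2(FPKM + 0.5) scale, which understates changes of genes with low levels. VAL1 itself (AT2G30470, chromosome 2) was detected in the mutant at reduced level. It was at 4.29, 4.35 and 6.01 FPKM in val1 and at 14.2, 12.0 and 16.0 FPKM in wild type. The groups did not overlap, and the difference was -1.44 (SE 0.19, limma adjusted p = 7.2e-07). Both deposited VAL1 forms were lower. The form that matches the reference averaged 0.994 FPKM in val1 and 4.63 FPKM in wild type, and a variant form 3.89 FPKM in val1 and 9.41 FPKM in wild type. In the second deposited set of values the VAL1 difference was -4.85.

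Of 18389 genes tested, 1973 were higher in val1 (10.7%) and 1282 were lower (6.97%), at a Benjamini-Hochberg adjusted p under 0.05, or 17.7% in either direction. A difference of at least 1 on the log2 scale was reached by 749 of the higher genes (4.07% of those tested) and 330 of the lower ones (1.79%). Val1 libraries lay above all wild-type libraries for 17.6% of genes and below them for 14.9%, whether called or not. Of the calls 60.6% were higher, against 75.1% when values were left unscaled. Without wild-type replicate 2 there were 1015 higher and 627 lower genes. Without val1 replicate 1 there were 1221 and 812, and without val1 replicate 3 there were 1271 and 837.

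The genes that rose most encoded small peptides, membrane and signalling proteins, or proteins that the annotation used here lists as unknown. AT2G30766, annotated in the files as an unknown protein, was at 172, 181 and 201 FPKM in val1, against 3.33, 0.319 and 0.75 FPKM in wild type. This was the largest difference among named genes, 6.87 (SE 0.82, limma adjusted p = 1.21e-07). Its annotation overlaps 572 bases of CYP71A13, a cytochrome P450 of camalexin synthesis, which was higher by 4.104, so reads could be shared between them. AT1G47400 and its similar neighbour AT1G47395, both likewise annotated as unknown proteins, were at 42.1 to 66.2 and 98.6 to 153 FPKM in val1 and at most 0.121 and 2.42 FPKM in wild type. As counting may split reads between such similar genes, their separate levels are uncertain.

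AXR3, an Aux/IAA protein that holds down the auxin response, was at 43.1, 45.6 and 57.5 FPKM in val1 and at 0.990, 0.527 and 1.84 FPKM in wild type. RGF2, a peptide that maintains the root meristem, was at 67.4, 68.6 and 56.2 FPKM in val1, against 2.48, 0.731 and 3.51 FPKM in wild type. PSK4, a precursor of the growth peptide phytosulfokine, was at 39.4, 35.0 and 37.0 FPKM in val1 and at 0.174, 1.72 and 1.36 FPKM in wild type. None of these groups overlapped, which was a condition for naming a gene here. The differences were 5.00 (SE 0.32, limma adjusted p = 1.05e-13) for AXR3, 4.71 (SE 0.42, adjusted p = 2.23e-10) for RGF2 and 4.74 (SE 0.63, adjusted p = 9.68e-07) for PSK4.

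Other genes near the top were silent or nearly so in wild type. AT1G74140, a rhomboid-related gene, was at 19.6, 16.8 and 17.6 FPKM in val1 and listed at 0 in all 3 wild-type libraries. AT1G13609, of the defensin-like family, was at 33.7, 22.6 and 22.1 FPKM in val1 and likewise listed at 0 in wild type. GLTP2, a glycolipid transfer protein, was at 24.6, 29.3 and 20.0 FPKM in val1 and at 0.134, 0.413 and 0.334 FPKM in wild type. The other 6 named genes were the membrane lipoprotein gene AT4G08869, the glycine-rich AT4G30460, the transporter AT3G05150 of the major facilitator family, and AT1G02770, AT1G07175 and AT2G14247. Their differences ran from 4.65 to 6.497. Of the 15 named genes, 13 were also called higher at day 12 and at day 15.

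The genes that fell most included metabolic enzymes, an iron store and a LEA gene. GSTF9, a glutathione S-transferase, was at 3.15, 2.86 and 2.58 FPKM in val1 and at 32.4, 44.1 and 22.9 FPKM in wild type, a difference of -3.27 (SE 0.28, limma adjusted p = 9.08e-11). ChlAKR, a chloroplast aldo-keto reductase, was at 4.93, 12.3 and 6.18 FPKM in val1, against 28.5, 62.0 and 47.9 FPKM in wild type. FER4, a ferritin that stores iron, was at 0.498, 0.625 and 1.34 FPKM in val1 and at 6.73, 8.25 and 6.81 FPKM in wild type. The groups were apart for each, again a condition of the choice. Limma differences were -2.52 (SE 0.33, adjusted p = 7.77e-07) for ChlAKR and -2.603 (SE 0.31, adjusted p = 1.15e-07) for FER4. EM1, a LEA gene that ABI5 is known to activate, was at 216, 80.0 and 35.2 FPKM in val1 and at 487, 965 and 283 FPKM in wild type, with wide spread in both groups. It differed by -2.58 (SE 0.47, adjusted p = 0.000137).

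ILA, which encodes a HEAT-repeat protein, had the lowest difference, -3.54 (SE 0.26, limma adjusted p = 3.14e-12). Its sum was at 7.43, 8.10 and 6.33 FPKM in val1 and at 83.4, 101 and 85.6 FPKM in wild type. Almost all of that gap lay in 1 assembled form of 573 bases, which averaged 1.78 FPKM in val1 and 83.0 FPKM in wild type. An antisense transcript of 817 bases at the same locus, kept out of the sum, averaged 1.42 FPKM in val1 and 58.3 FPKM in wild type. Whether counting used strand is not given in the sources used here, so reads of these forms cannot be told apart. With reference forms alone the ILA difference was 0.20 (adjusted p = 0.549). The other 10 named lower genes were AT5G04000, AT3G49160, ST2B, AT3G10300, AT4G11310, AT4G25030, AT1G74150, AT2G43720, LigB and AT5G35580, with differences from -3.14 to -2.24. AT1G74150, a kelch-repeat gene, adjoins AT1G74140 and moved the other way. It was at 0.879, 0.720 and 0.559 FPKM in val1 and at 6.24, 5.07 and 5.42 FPKM in wild type.

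**Figure D1:**
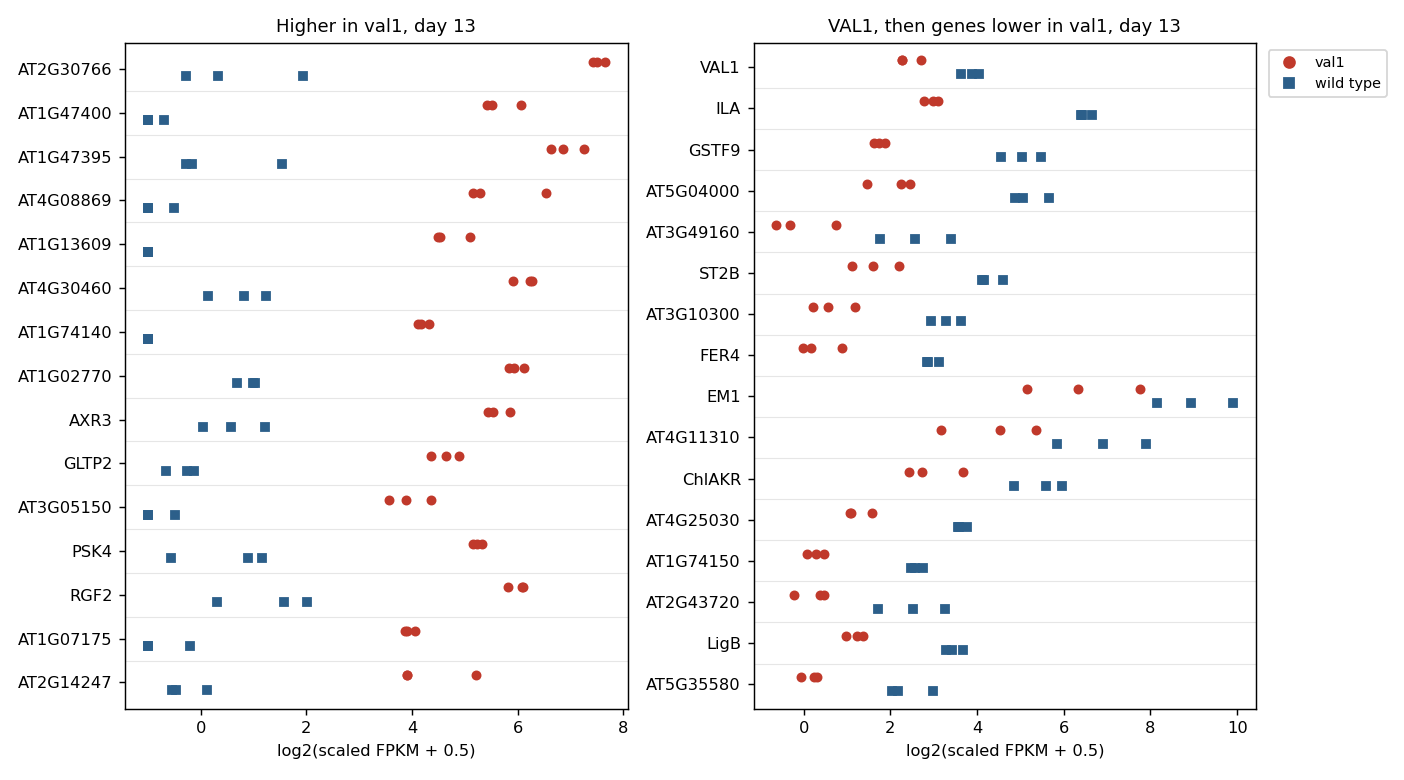
Level of each named gene in each day 13 library as log2(scaled FPKM + 0.5), with val1 libraries as red circles above wild-type libraries as blue squares. In the left panel the 15 genes with the largest rise are shown, and in the right panel VAL1 and the 15 with the largest fall. The 3 val1 and 3 wild-type libraries do not overlap for any gene, a condition of the choice for all but VAL1.

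Since the B3 domain of VAL1 reads CATGCA, the 300 bases from 250 before to 50 after the annotated start of each gene were searched for these letters on either strand, in the TAIR10.1 reference. They were present in 289 of 1949 promoters of genes higher in val1 (14.8%), in 95 of 1259 of genes lower in val1 (7.55%), and in 1565 of 17942 of all genes tested (8.72%). Among genes higher by at least 1 on the log2 scale, 161 of 734 held them (21.9%), and of the 15 named higher genes 6 did. The letters CACGTG of the G-box, the core of elements that bZIP factors such as ABI5 bind, were in 8.93% of promoters of higher genes, 13.8% of lower genes and 9.46% of all. Genes that rise from day 12 to day 15 in wild type make up much of the lower genes, and they held CACGTG in 14.6% of promoters, or in 13.7% of those not called lower. TATAAA, the core of the TATA box, was in 54.5% of higher, 47.7% of lower and 50.5% of all promoters. These shares describe letters in a window and show no binding.

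Upstream sequences are given for 4 higher genes that hold CATGCA and 2 lower genes that hold CACGTG, picked as examples with their values known. Each runs 5′ to 3′ on the gene's strand over the 250 bases before the start, read from the TAIR10.1 assembly of RefSeq, and capitals mark either motif on either strand. They are the plus strand of chr1:4668116-4668365 for RGF2, chr3:18465068-18465317 for PSK4, chr3:1439764-1440013 for AT3G05150 and chr3:3527030-3527279 for WOX5, and the minus strand of chr2:15207637-15207886 for ABI5 and chr5:17849537-17849786 for the LEA gene AT5G44310.
RGF2: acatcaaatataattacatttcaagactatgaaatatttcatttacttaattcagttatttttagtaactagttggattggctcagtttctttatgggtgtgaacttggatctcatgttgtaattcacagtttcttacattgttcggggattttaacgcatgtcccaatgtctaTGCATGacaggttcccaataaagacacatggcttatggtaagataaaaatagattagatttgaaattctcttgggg
PSK4: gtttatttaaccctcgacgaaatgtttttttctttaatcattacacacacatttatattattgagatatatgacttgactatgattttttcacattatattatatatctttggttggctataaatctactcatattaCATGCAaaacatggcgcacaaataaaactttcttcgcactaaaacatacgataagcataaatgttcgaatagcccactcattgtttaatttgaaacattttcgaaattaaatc
AT3G05150: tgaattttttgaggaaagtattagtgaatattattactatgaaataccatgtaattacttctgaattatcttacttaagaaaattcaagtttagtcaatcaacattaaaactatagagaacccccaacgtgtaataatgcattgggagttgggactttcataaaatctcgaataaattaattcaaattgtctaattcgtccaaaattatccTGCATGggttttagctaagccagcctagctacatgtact
WOX5: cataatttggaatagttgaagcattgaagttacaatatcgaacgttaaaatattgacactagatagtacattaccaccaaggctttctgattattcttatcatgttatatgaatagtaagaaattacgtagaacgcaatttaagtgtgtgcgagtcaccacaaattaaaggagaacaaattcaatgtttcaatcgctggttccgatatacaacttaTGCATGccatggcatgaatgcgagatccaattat
ABI5: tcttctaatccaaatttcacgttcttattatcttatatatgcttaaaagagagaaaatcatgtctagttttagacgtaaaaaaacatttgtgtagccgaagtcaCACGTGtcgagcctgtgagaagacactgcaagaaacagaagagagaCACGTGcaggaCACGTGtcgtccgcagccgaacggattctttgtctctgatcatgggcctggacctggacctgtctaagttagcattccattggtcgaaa
AT5G44310: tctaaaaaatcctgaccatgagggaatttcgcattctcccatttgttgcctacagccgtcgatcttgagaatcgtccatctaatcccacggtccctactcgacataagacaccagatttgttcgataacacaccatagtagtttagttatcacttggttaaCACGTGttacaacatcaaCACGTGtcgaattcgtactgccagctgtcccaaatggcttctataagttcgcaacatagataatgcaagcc
The 4 higher genes each held 1 copy of the RY core, 113 to 34 bases before the start. ABI5 held 3 copies of the G-box core and AT5G44310 held 2.

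Among 19 regulators of maturation tested, 1 was higher and 1 was lower, against 10.7% and 6.97% of all genes. Their median difference was -0.08, against 0.01 for all genes. The gene that rose was NF-YB6, also called L1L, a relative of LEC1 and subunit of the NF-Y factor that drives embryo gene expression. It was at 154, 90.1 and 166 FPKM in val1 and at 19.1, 7.28 and 30.01 FPKM in wild type, a difference of 2.99 (SE 0.40, limma adjusted p = 8.95e-07). Its neighbour AT5G47660, whose annotation overlaps it by 116 bases, was higher by 1.79. ABI5, the bZIP factor that carries abscisic acid responses in seeds, was at 10.4, 9.79 and 8.61 FPKM in val1, against 18.7, 24.8 and 17.3 FPKM in wild type. It fell by 1.03 on the log2 scale (SE 0.22, adjusted p = 0.000864).

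FUS3 and ABI3, B3 factors that lead the seed program, were not called in the limma fit of all 41 libraries. FUS3 was at 61.4, 66.7 and 57.9 FPKM in val1, where its difference from wild type was -0.24 (SE 0.16, limma adjusted p = 0.345), and ABI3 was at 84.3, 76.0 and 77.6 FPKM with a difference of -0.29 (SE 0.14, adjusted p = 0.157). LEC1 and LEC2 were below 0.2 FPKM in every val1 library. With libraries paired by number, 1 regulator of 15 was higher and 6 were lower.

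Among 19 genes of the VAL family, Polycomb and histone deacetylase complexes, 3 rose, against 10.7% of all genes, and VAL1 fell. FLC, the flowering repressor that VAL1 is known to silence, was at 197, 205 and 209 FPKM in val1 and at 117, 114 and 118 FPKM in wild type. The groups were tight and apart, with a difference of 0.80 (SE 0.12, limma adjusted p = 6.93e-06). DRIP1 and DRIP2, RING proteins also known as the Polycomb subunits BMI1B and BMI1A, were higher by 0.79 (SE 0.14, adjusted p = 5.49e-05) and 0.88 (SE 0.13, adjusted p = 1.08e-05). On chromosome 2 VAL1 ends at base 12985277, and the promoter window of DRIP2 begins at 13025661. AT2G30766 and GSTF9 start at 13107583 and 13138882 on the same chromosome. Whether nearness to VAL1 plays a part in their differences was not tested.

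None of 13 storage protein genes was called by limma, at a median difference of -0.10 and a range from -0.35 to 0.30. One of 11 oil body genes was, OLEO3 with a difference of 1.014, which was not called without wild-type replicate 2, val1 replicate 1 or val1 replicate 3. With paired libraries 1 oil body gene was higher and 3 were lower. Of 28 genes of fatty acid and oil synthesis, 3 rose, among them the acyl carrier protein gene ACP5 by 1.92, and 2 fell, shares close to the 10.7% and 6.97% of all genes. With paired libraries 11 of these 28 were higher and 2 lower, and without wild-type replicate 2 none was higher and 2 were lower. Without val1 replicate 1 the counts were 0 and 1, without val1 replicate 3 they were 1 and 1, and without val1 replicate 2 or wild-type replicate 3 they were 5 and 2.

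LEA genes and chlorophyll breakdown genes were the lists lowest in val1. Of 20 LEA and desiccation genes 8 fell and none rose, against 6.97% and 10.7% of all genes, with a median difference of -0.74. The 20 genes summed to 6692, 8814 and 5896 FPKM in val1 and to 11945, 21359 and 11180 FPKM in wild type, with no overlap. Such sums are weighted to the most abundant genes. Mean log2 levels, which weigh each gene alike, were 6.23, 5.60 and 5.11 in val1 and 6.19, 7.20 and 5.83 in wild type, and overlapped. AT3G15670, the LEA gene with the highest level of those called, was at 2615, 4468 and 2361 FPKM in val1, and RAB18 (AT5G66400), a dehydrin, was at 110, 103 and 27.1 FPKM. In wild type AT3G15670 was at 5820, 11862 and 5668 FPKM and RAB18 at 206, 745 and 126 FPKM, each with its top value in replicate 2. They fell by 1.28 (SE 0.31, limma adjusted p = 0.00327) and 1.99 (SE 0.60, adjusted p = 0.019). Without wild-type replicate 2, 2 LEA genes were lower, EM1 and AT3G17520, and 1 was higher, and the median was -0.39. Without val1 replicate 3 the count of lower genes was 3.

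Of 7 chlorophyll breakdown genes 5 fell, against 6.97% of all genes, with a list median of -0.96. NYC1, the chlorophyll b reductase that starts the breakdown, was at 10.0, 13.5 and 11.4 FPKM in val1 and at 36.2, 46.4 and 31.0 FPKM in wild type, a difference of -1.65 (SE 0.17, limma adjusted p = 4.42e-09). The stay-green genes AT4G11910 and NYE1 fell by 1.51 and 0.96, PPH, which takes the phytol tail off pheophytin, by 1.04, and ACD1, the oxygenase that opens the ring, by 0.89. NOL and ACD2 were not called. Without wild-type replicate 2 the count was 3. The list for light harvesting and photosystems also held genes for Rubisco small subunits and Rubisco activase. Its median was 0.71, and 38 of 41 genes were above 0. Yet only 3 were called higher, PSBO2, PSAH2 and PSBR, against 10.7% of all genes. With paired libraries 24 of 37 were higher. The 41 genes summed to 2122, 1020 and 2379 FPKM in val1 and to 1135, 446 and 1839 FPKM in wild type, groups that overlapped. Replicate 2 was lowest in each genotype, and without wild-type replicate 2 the median was 0.20 with 1 gene called. The count was also 1 without val1 replicate 1 or 3, 5 without val1 replicate 2 and 9 without wild-type replicate 3.

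**Figure D2:**
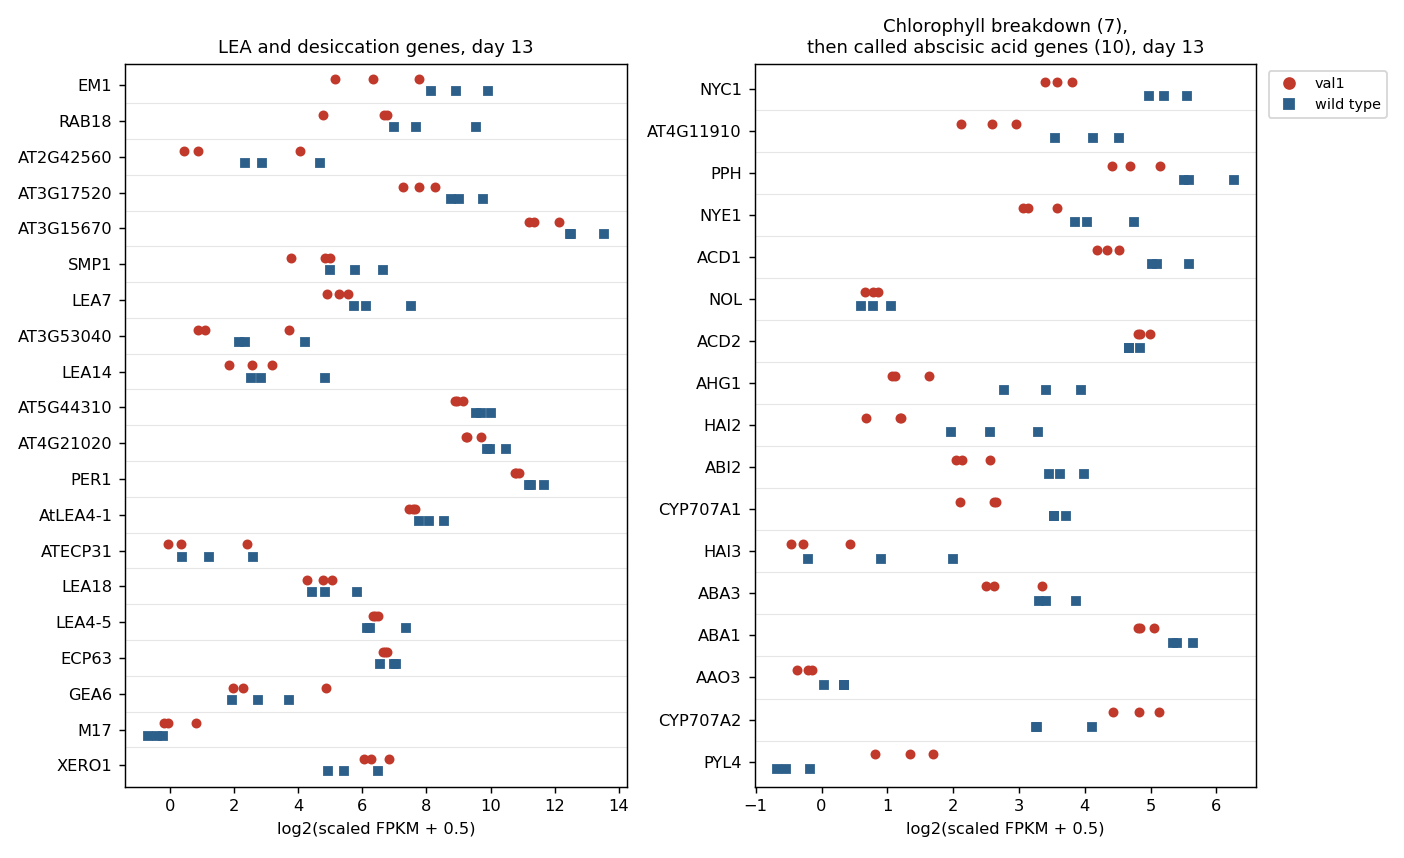
Level of LEA and desiccation genes (left) and of chlorophyll breakdown genes followed by called abscisic acid genes (right) in each day 13 library, as log2(scaled FPKM + 0.5), with val1 as red circles above wild type as blue squares. NYC1 is at 10.0 to 13.5 FPKM in val1 and 31.0 to 46.4 FPKM in wild type, while several LEA genes have 1 high wild-type library, replicate 2.

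Abscisic acid genes moved in a mixed way. Of 26 tested, 8 fell and 2 rose, against 6.97% and 10.7% of all genes. The fall was led by some phosphatases of the clade A PP2C family, which hold down abscisic acid signalling. AHG1 was at 1.59, 2.601 and 1.66 FPKM in val1 and at 10.11, 14.9 and 6.30 FPKM in wild type, a difference of -2.10 (SE 0.26, limma adjusted p = 3.51e-07). HAI2, ABI2 and HAI3 differed by -1.58, -1.44 and -1.01. ABI1, HAB1, HAB2, AHG3 and HAI1, of the same family, were not called in the fit of all 41 libraries. ABA1, ABA3 and AAO3, enzymes of abscisic acid synthesis, had differences of -0.57, -0.71 and -0.48. HAI3 and these 3 enzymes were the members not called without wild-type replicate 2, where HAI3 was at -0.45 (adjusted p = 0.364) and the enzymes had adjusted p of 0.092, 0.239 and 0.129 by limma. The 2 main genes for breakdown of the hormone moved apart. CYP707A1 was at 3.82, 5.64 and 5.81 FPKM in val1 and at 11.1, 11.1 and 12.7 FPKM in wild type, and CYP707A2 was at 27.9, 34.3 and 20.9 FPKM in val1 and at 9.07, 16.8 and 9.14 FPKM in wild type. Neither pair of groups overlapped, with differences of -1.14 (SE 0.25, adjusted p = 0.00133) and 1.24 (SE 0.21, adjusted p = 3.23e-05). PYL4, a receptor of the hormone, rose by 1.75. Without wild-type replicate 2, 4 of the list were lower and 2 higher, and without val1 replicate 1 or 3, 5 were lower and 2 higher.

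Auxin genes split too, with 7 higher and 5 lower of 34, against 10.7% and 6.97% of all genes. Without wild-type replicate 2 the counts were 4 and 4, and without both libraries numbered 2 they were 3 and 4. IAA28 and MP, an Aux/IAA repressor and the ARF5 factor of embryo patterning, rose by 1.15 and 1.12 beside AXR3. IAA2, IAA13, ATAUX2-11 (IAA4), IAA1 and IAA10 fell. IAA2 was at 0.786, 1.26 and 0.897 FPKM in val1, against 3.27, 8.11 and 4.37 FPKM in wild type, a difference of -1.88 (SE 0.21, limma adjusted p = 2.32e-08). Aux/IAA genes therefore stood on both sides, with AXR3 far above the rest. Of 17 gibberellin genes 5 were higher, against 10.7% of all genes, led by GA2OX8, which inactivates the hormone, at 1.84. The others called higher were the synthesis gene GA20OX1, the DELLA gene RGA1, GASA4 and GASA6. RGL2, a DELLA repressor of germination, fell by 1.04. The count of higher genes was 2 without wild-type replicate 2 or val1 replicate 1, and 3 without wild-type replicate 1 or val1 replicate 3.

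Root meristem genes included RGF2 and 3 others called higher of 13, with none lower, against 10.7% and 6.97% of all genes. WOX5, which keeps the root stem cell niche, was at 3.71, 2.71 and 2.51 FPKM in val1 and at 0.227, 0.0917 and 0.235 FPKM in wild type. It rose by 2.34 (SE 0.26, limma adjusted p = 2.22e-08), and RGF1 rose by 1.79. BBM, PLT1, PLT2, SCR and SHR, factors that pattern the same tissue, were not called, with differences from -0.08 to 0.38. Cell cycle and replication genes had 12 higher and none lower of 32, against 10.7% and 6.97% of all genes. Their median was 0.40, and all were at low level. TSO2, the small subunit of ribonucleotide reductase, rose most, by 1.55, and was at 4.16, 2.27 and 3.51 FPKM in val1 and at 0.739, 0.623 and 0.985 FPKM in wild type. The count was 5 without wild-type replicate 2 and 6 without val1 replicate 1 or 3. It was also 5 with a pseudocount of 2, and 2 in the second deposited sheet. With the filter on day 13 libraries 9 of these genes were tested, and 6 were higher. LACS7, MFP2 and PMDH1 were the 3 lower genes of 15 for lipid mobilisation, against 6.97% of all genes. That count was 7 of 14 with paired libraries, 0 without wild-type replicate 2 or val1 replicate 3, 1 without wild-type replicate 1 or val1 replicate 1, and 5 without wild-type replicate 3. Of 10 seed heat shock genes none was called in the limma fit of all 41 libraries (2 lower of 5 with paired libraries). Of 17 cold and handling genes COR47 rose by 1.15. LTI78, below 1 FPKM in all 6 libraries, was called at -0.70 (limma adjusted p = 0.0335), and lost the call without any 1 of 5 libraries, the exception being wild-type replicate 1.

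**Figure D3:**
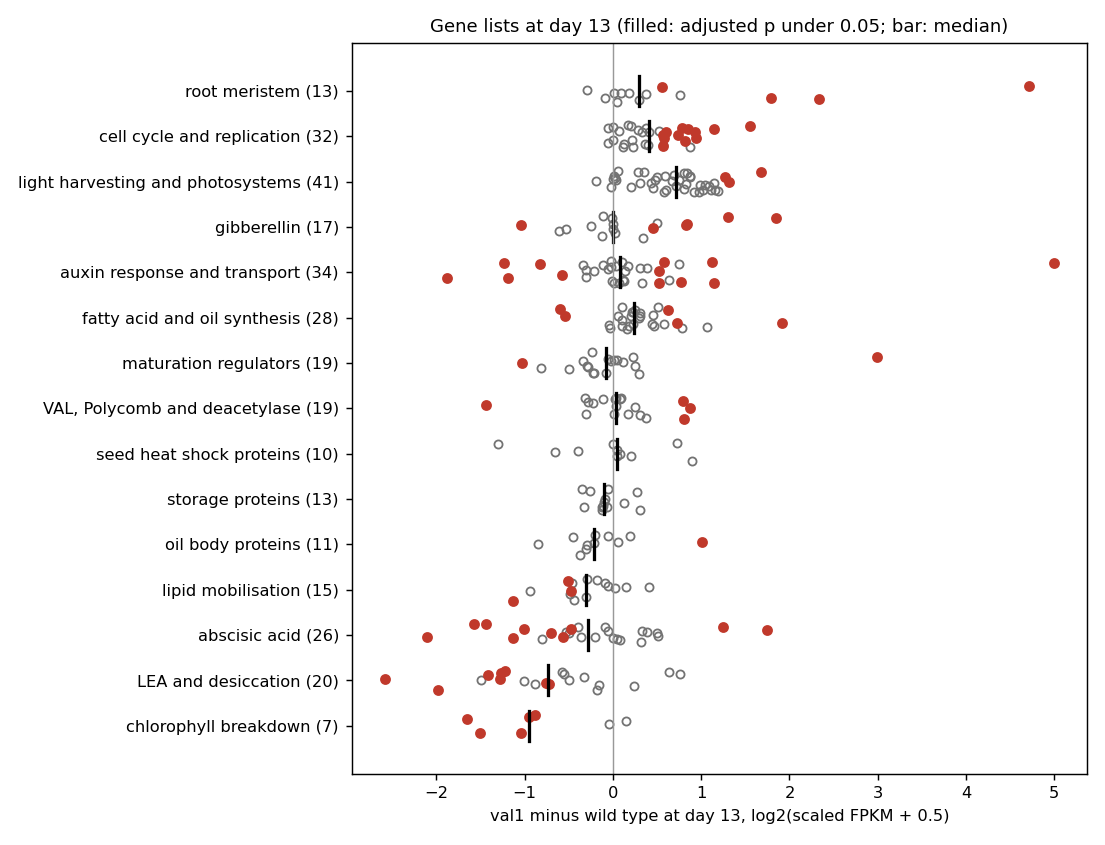
Difference between val1 and wild type at day 13 for each tested gene of 15 lists, in log2(scaled FPKM + 0.5), with the number tested in brackets. Filled circles are genes with an adjusted p under 0.05, open circles are other genes, and black bars are list medians, which run from -0.96 for chlorophyll breakdown to 0.71 for light harvesting and photosystems.

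Many of these genes change with age, so the day 13 difference was set against the change from day 12 to day 15 in wild type, which shares no library with it. In wild type 2458 genes rose by at least 1 over those days (13.4% of those tested). Of these, 747 were lower in val1 at day 13 and 58 were higher, with a median difference of -0.33. Another 3789 genes fell with age (20.6%), of which 1072 were higher in val1 and 49 lower, with a median of 0.37. Genes that rise with age made up 58.3% of all lower calls, and genes that fall with age made up 54.3% of all higher calls. Of the remaining 12142 genes, 6.94% were higher and 4.00% lower, with a median of -0.0016. Across genes the 2 quantities correlated at r = -0.50 (Spearman rho = -0.56, n = 18389), as a description, since genes are not independent.

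The share called grew with the size of the change in wild type. Of 583 genes that fell by 3 or more with age, 45.6% were higher in val1 and none was lower by limma, and their median difference was 0.78. Of 312 genes that rose by 3 or more, 47.1% were lower and 3.21% higher, with a median of -0.78. Of the 15 named lower genes 12 rise with age in wild type, and of the 15 named higher genes 8 fall with age, among them AXR3, RGF2 and PSK4.

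**Figure D4:**
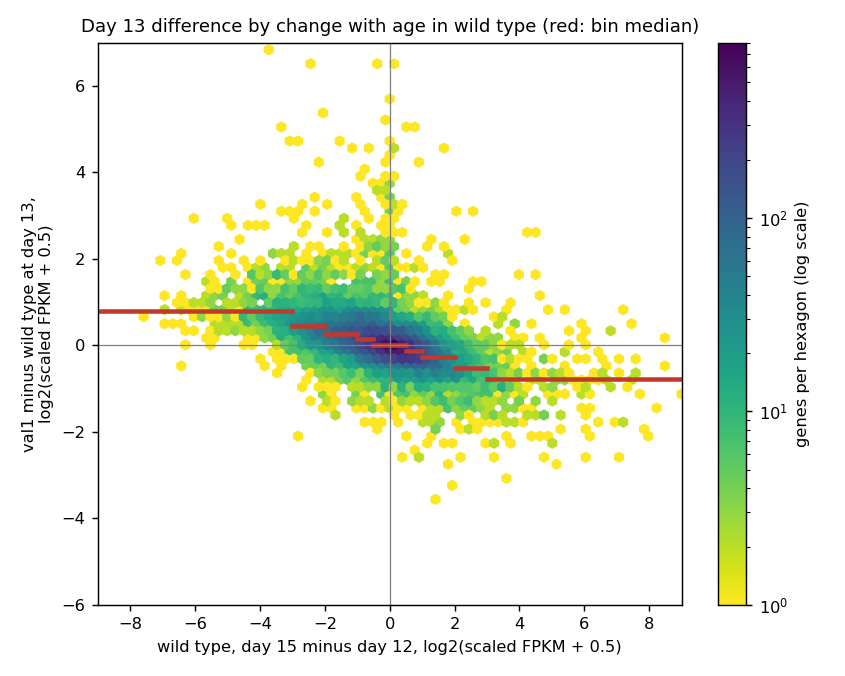
Each tested gene by its change from day 12 to day 15 in wild type (horizontal) and its val1 minus wild type difference at day 13 (vertical), both in log2(scaled FPKM + 0.5), with colour for genes per hexagon on a log scale. Red lines are medians of bins of the horizontal axis and step down from 0.78 on the left to -0.78 on the right. 4 genes lie outside the axes.

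The mean log2 level of the rising genes minus that of the falling genes placed each library along this change. The values were -0.38, -0.10 and -0.59 in val1 at day 13 and 0.27, 1.10 and 0.06 in wild type at day 13. All 3 val1 libraries lay below the wild-type ones and above those of wild type at day 12, which were at -0.94 to -0.70. At day 12 val1 was at -1.05 to -0.88, next to wild type, and at day 15 val1 was at 1.82 to 2.88 and wild type at 2.70 to 3.60, ranges that overlapped at both ages. Between libraries of the same number val1 was lower in each pair at day 13, with gaps of -0.65, -1.20 and -0.66. The gaps were -1.17, -0.73 and -0.88 at day 15, and -0.18 and -0.10 in the 2 numbered pairs at day 12. Wild-type libraries of days 12 and 15 defined the lists, so their values and these gaps are not independent of the choice of genes. Replicate 2 was the highest of its group at day 13 and at day 15 in both genotypes. Without wild-type replicate 2, 345 of the rising genes were lower and 463 of the falling genes were higher in val1, with medians of -0.21 and 0.22. Differences in embryo stage at harvest and an effect of genotype on the pace of development cannot be told apart.

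**Figure D5:**
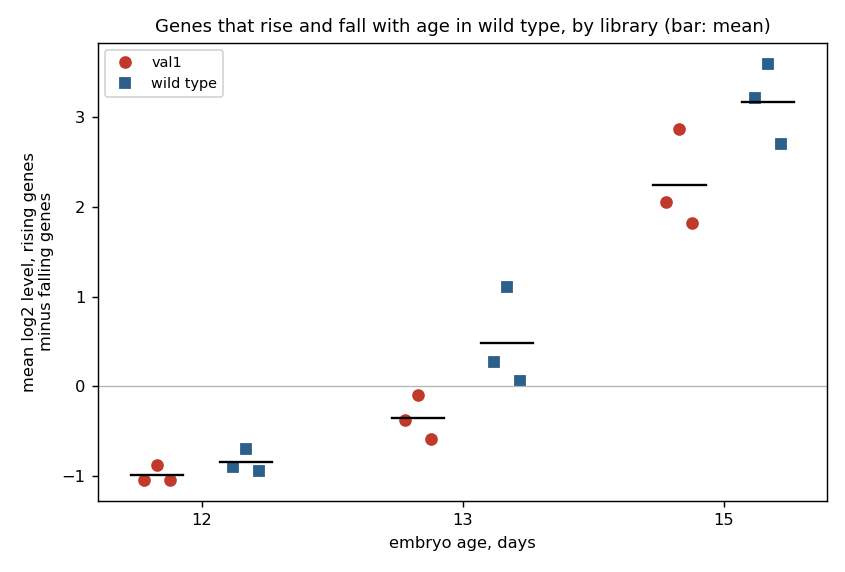
Mean log2 level of the 2458 genes that rise minus that of the 3789 genes that fall from day 12 to day 15 in wild type, for each library at days 12, 13 and 15, with val1 as red circles left of wild type as blue squares and black bars as means. At day 13 the val1 libraries are at -0.59 to -0.10 and the wild-type libraries at 0.06 to 1.10. The wild-type libraries at days 12 and 15 defined the lists.

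The calls at day 13 were partly shared with the neighbouring ages, which have their own libraries. At day 12, 5.42% of genes were higher and 3.1% lower in val1, and at day 15, 11.6% were higher and 5.98% lower. Of the 1973 higher genes, 38.4% were also higher at day 12 and 47.6% at day 15, which were 76.0% of the day 12 calls and 44.2% of the day 15 calls. Of the 1282 lower genes, 33.6% were also lower at day 12 and 34.7% at day 15, or 75.6% and 40.5% of the calls at those ages. At all 3 ages 448 genes were higher and 223 lower.

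Tested directly, the day 13 difference was above the mean of the day 12 and day 15 differences for 23 genes (0.125%) and below it for 4 (0.0218%). These calls depended on the model, since limma-voom on estimated reads gave 1 and 0 and called none of the 6 genes named for this contrast. LUP1, a lupeol synthase, was at 8.97, 5.86 and 10.5 FPKM in val1 at day 13 and at most 0.166 FPKM in wild type. Its difference was 3.97 at day 12, 3.99 at day 13 and 0.78 at day 15. BZIP61, a bZIP factor, was at 6.79, 5.05 and 5.995 FPKM in val1 and at most 0.139 FPKM in wild type, and its difference was 3.50 at day 12, 3.50 at day 13 and 0.80 at day 15. Both thus had the same difference at days 12 and 13 and lost most of it by day 15. AT3G51290, whose annotation overlaps ROP1 by 1514 bases, differed by 0.30, 1.37 and -0.19 at days 12, 13 and 15.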

How the data were processed

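RNA-seq of washed embryos, 3 libraries per genotype at day 13, was analysed from values the authors deposited. Per the submitters' processing notes TopHat2, StringTie and the TAIR10 build were used, with no versions or roles. The authors deposited FPKM values and transcript lengths, in bases. FPKM times length summed to 1000000000 per library, so values are relative to reads on listed transcripts. Lengths served to estimate reads, which came in twelfths of a read for 100% of low values (tolerance 0.02). How technical replicates were joined was not established, so depth is an estimate. A second deposited sheet, of another signal on an FPKM-like scale, was used as an alternative. The deposited comparison table of the authors' log2 differences and p-values was used as a check alone: of 3542 transcripts of genes called here, 3539 had the same sign at day 13, from the same libraries.

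Transcripts of class codes = and j were summed to 33544 genes, brought to a common scale by unweighted trimmed log ratios (30% and 5% trimmed), and the 18389 genes that reached 1 FPKM in 2 or more of 41 libraries were tested with limma 3.58.1 in R 4.3.3. The model had a mean for each of 14 groups of genotype and age and a trended prior, with log2(FPKM + 0.5) as response. Calls used Benjamini-Hochberg adjusted p under 0.05. The fit was tested on simulated data. Members and gene lists were chosen with earlier results of these data known.

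Named genes were VAL1, the 15 higher and 15 lower called genes with the largest difference, no overlap of libraries and at least 5 FPKM in the higher group, up to 5 per direction for the contrast of day 13 with days 12 and 15, up to 4 called members per list and every called maturation regulator. Further list members named in the text were chosen after their values were seen. Libraries were paired by replicate number as a check, as the labels give the numbers alone. Deviations from the group means correlated at 0.303, 0.487 and 0.503 for the same number and at -0.433 to -0.002 for different ones. Within a group the deviations of a gene cancel, so the negative values follow in part from the positive ones. The paired fit, also by limma, used the 6 day 13 libraries. Where several called list members are named in a sentence without a p, each had an adjusted p under 0.05. Alternatives covered scaling, pseudocount, filter, transcript class, deposited sheet, model and each library left out. RefSeq annotation of TAIR10.1 gave symbols and starts, and the motif search took 17942 promoters, overlapping matches on both strands included. Figures used matplotlib 3.10.9.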

Additional observations from a re-analysis of the deposited data

Results flagged for a closer look

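For 6 named genes the difference between val1 and wild type at day 13 departed from the mean of the day 12 and day 15 differences, by a limma contrast. AT1G13609 stood 2.80 above that mean (SE 0.52, adjusted p = 0.0133), AT4G08869 1.90 (SE 0.40, adjusted p = 0.0374), LUP1 1.61 (SE 0.27, adjusted p = 0.00791), BZIP61 1.35 (SE 0.19, adjusted p = 0.000761) and AT3G51290 1.32 (SE 0.29, adjusted p = 0.0483). AT5G04000, of unknown function, was at -1.34 (SE 0.27, adjusted p = 0.0305), and its difference was -2.55 at day 12, -3.14 at day 13 and -1.05 at day 15. It was at 4.27, 5.00 and 2.27 FPKM in val1 at day 13 and at 32.9, 50.2 and 28.7 FPKM in wild type. AT1G13609 is listed at 0 in wild type at day 13, so its value depends on the pseudocount. None of the 6 was called with limma-voom, and with a pseudocount of 0.1 BZIP61 alone was. Without val1 replicate 1 BZIP61 alone was called, and without wild-type replicate 2 BZIP61 and LUP1 were. AT4G08869 was not called without val1 replicate 2 either, nor AT5G04000 without val1 replicate 3. LUP1 was at -0.97 (adjusted p = 0.91) in the second deposited sheet, and AT3G51290 was not called without val1 replicate 3.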

How the results depend on the processing

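VAL1 was lower under every alternative, at -1.58 to -1.34 with 1 library left out and -4.85 in the second deposited sheet. Leaving out 1 library gave 1015 to 2149 higher and 627 to 1304 lower genes, and 2 to 108 and 0 to 39 for the contrast with days 12 and 15. Leaving out both libraries numbered 2, a setting added after seeing the data, gave 1203, 694, 15 and 4. The 6 day 13 libraries alone called 941 higher and 583 lower genes, and with the replicate block 2498 and 1872, within 1.5 times the counts of 1973 and 1282. The second sheet gave 1016 and 488, and 76 and 37 for the contrast. Unscaled values gave 525 lower genes, with the median of all genes at 0.07, and 2 and 0 for the contrast. The contrast also gave 15 and 2 with the filter on day 13 libraries, 38 and 10 with no filter, 7 and 1 with a pseudocount of 0.1, 1 and 0 with limma-voom, and 13 lower genes with a pseudocount of 2. The ILA difference reversed to 0.20 with reference forms alone, LUP1 to -0.97 for the contrast and PDAT to 1.52 (adjusted p = 0.345) in the second sheet. The causes were not tested. Of 121 calls on named or list genes, 79 held without wild-type replicate 2 and 42 did not. Without val1 replicate 1 or 3, 35 and 33 were lost. In the second sheet 66 of 118 held, 50 were lost and 2 reversed. Fits to the 6 day 13 libraries alone covered 102 of the calls and not those for the contrast. Of these 102, 30 were lost without the replicate block and none with it. Precision is limited by 3 libraries per group, and genes under about 1 FPKM rest on few reads and on the pseudocount.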

Other observations

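A list of genes for iron handling was made after values had been seen, and the genes below were picked from it with their values known, so they are a description without a test. FER2, a seed ferritin, was at 42.0, 46.3 and 26.0 FPKM in val1 and at 148, 245 and 140 FPKM in wild type. FRO3, a ferric reductase gene, was at 31.6, 16.2 and 18.3 FPKM in val1 and at 2.17, 0.871 and 0.506 FPKM in wild type, and FRO2, the root surface reductase, was at 3.56, 4.41 and 3.62 FPKM in val1 and at 0.116, 0.629 and 0.0248 FPKM in wild type. ORG1 was at 116, 101 and 80.8 FPKM in val1, against 19.1, 20.7 and 13.0 FPKM in wild type. The libraries of the genotypes did not overlap for any of these 4 genes, FER2 being lower and the other 3 higher in val1. Over all genes tested val1 lay above wild type in 17.6% and below it in 14.9%. VIT1, which loads iron into vacuoles, was at 48.9, 42.0 and 49.5 FPKM in val1 and at 55.4, 45.3 and 59.5 FPKM in wild type, and these groups overlapped. Of 34 iron genes looked up, 22 had enough signal to be tested. Among these 4 were higher and 5 lower, against 10.7% and 6.97% of all genes, with a median difference of -0.13.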
